A study of Mus musculus with 11 samples.

Results

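Akr1c18, Sema3c and Chdh are 3 mouse genes picked from the 51912 genes of a bone marrow RNA-seq count table because their counts rose from few in the CSF3R-only group to many in the CEBPA-first group. They were found in the table by symbol, through their Ensembl identifiers ENSMUSG00000021214 (Akr1c18), ENSMUSG00000028780 (Sema3c) and ENSMUSG00000015970 (Chdh). All 3 were among the 15703 genes with enough counts to be tested. The difference between CEBPA-first and CSF3R-only was therefore what chose them and is given here only as a description, without a test.

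The experiment asked how the order in which a mutant CSF3R and a mutant CEBPA are acquired alters expression in blood progenitors. Marrow of C57BL/6 background with Rosa26 ERT2-Cre, a tamoxifen-inducible recombinase, received 2 retroviral vectors. The MIG vector, which carries GFP, drives its oncogene from the start, while the idsRed vector, which carries a red marker, does not drive its oncogene until Cre has acted on it. CSF3R-only (n = 4) carried CSF3R T618I in MIG and an empty idsRed vector, CSF3R-first (n = 3) carried CSF3R T618I in MIG and CEBPA V314VW in idsRed, and CEBPA-first (n = 4) carried CEBPA V314VW in MIG and CSF3R T618I in idsRed. Both oncogenes are human cDNAs expressed from viral promoters. In all 3 groups, lineage-negative cells positive for both colours were sorted and then grown without added cytokines for 48 hours with 4-hydroxytamoxifen, so the CSF3R-only controls met the drug and the active Cre as well. The labels do not say whether the samples of a group came from separate animals or cultures, so the p-values measure the spread between these samples, which may be technical. By the study's methods the marrow donors were healthy young adult mice.

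Akr1c18 encodes 20-alpha-hydroxysteroid dehydrogenase, an aldo-keto reductase that inactivates progesterone and is known best from the ovary. Sema3c encodes a secreted class 3 semaphorin, a guidance ligand that acts on neighbouring cells through neuropilin and plexin receptors. Chdh encodes choline dehydrogenase, the mitochondrial enzyme that oxidises choline on the way to betaine, a methyl donor used mainly in liver and kidney.

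Akr1c18 was nearly silent in CSF3R-only and well expressed in both groups that carried the CEBPA mutant. The raw counts in CSF3R-only replicates A to D were 6, 3, 11 and 4. In CSF3R-first replicates A to C they were 1255, 649 and 1007, and in CEBPA-first replicates A to D they were 5887, 4165, 4769 and 5160. The 3 groups did not overlap, and CSF3R-first A stood above its group. Divided by library size, in CPM, the counts scaled to a common library size with TMM factors, the means were 0.119 ± 0.0758 (SD, n = 4), 18.1 ± 6.50 (SD, n = 3) and 82.3 ± 16.6 (SD, n = 4). A total of 24 counts lies behind the CSF3R-only mean, and the 3 counts of replicate B are no more than a count of 0 still allows.

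Against CSF3R-only, Akr1c18 was 7.27 ± 0.36 (SE) higher in CSF3R-first on the log2 scale (edgeR adjusted p = 6.0e-08). This contrast shares its CSF3R-only samples with the choice of the gene. The pooled counts gave a ratio of 156, with a 95% counting interval of 105 to 244 that covers counting error only. From CSF3R-first to CEBPA-first the gene rose by a further 2.18 ± 0.22 (SE) on the log2 scale (edgeR adjusted p = 1.0e-05), a contrast that shares its CEBPA-first samples with the choice. The ratio of the means was 4.54, and the lowest CEBPA-first sample was 2.59 times the highest CSF3R-first sample. For description only, the CEBPA-first mean was 693 times the CSF3R-only mean.

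Akr1c18 lies on the minus strand of chr13:4132615-4150654 (GRCm38), with 9 merged exons. Its annotated transcript shared no stretch of at least 100 bases at 97% identity with another gene, and in alignments of 953 to 1033 bases its relatives in the Akr1c cluster matched it at 74.6% to 77.5%. The highest identity over a shorter stretch was 81.8%, over 467 bases of Akr1c20. The bases just before its first exon are printed as context for a gene that went from almost no counts to a high level. They are chr13:4150655-4150896 read on the minus strand, taken from the RefSeq promoter windows of GRCm38.p6, and the capitals mark the 1 match to a C/EBP core.

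Akr1c18 upstream: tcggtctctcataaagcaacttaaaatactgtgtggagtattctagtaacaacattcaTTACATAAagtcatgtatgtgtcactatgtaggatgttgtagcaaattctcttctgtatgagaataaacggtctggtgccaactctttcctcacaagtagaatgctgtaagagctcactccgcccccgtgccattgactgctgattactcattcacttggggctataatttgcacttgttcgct

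Sema3c behaved alike, from a start almost as low. The raw counts were 11, 4, 15 and 25 in CSF3R-only A to D, 1165, 1325 and 1539 in CSF3R-first A to C, and 7513, 8120, 6500 and 7236 in CEBPA-first A to D. No sample of one group reached the range of another. The mean CPM were 0.254 ± 0.133 (SD, n = 4), 24.9 ± 1.59 (SD, n = 3) and 121 ± 20.0 (SD, n = 4). The CSF3R-first samples were close together, with a coefficient of variation of 6.37%, against 35.8% for Akr1c18.

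Sema3c was 6.56 ± 0.23 (SE) higher on the log2 scale in CSF3R-first than in CSF3R-only (edgeR adjusted p = 3.4e-09). Its pooled counts gave a ratio of 94.4, with a 95% counting interval of 72.3 to 125. CEBPA-first was in turn 2.28 ± 0.16 (SE) above CSF3R-first on the log2 scale (edgeR adjusted p = 5.5e-07), a ratio of means of 4.87. As a description, the CEBPA-first mean was 477 times the CSF3R-only mean. These contrasts share samples with the choice of the gene in the same way as those of Akr1c18. The gene spans chr5:17574281-17730268 on the plus strand, with 18 merged exons, and its transcript held no near-identical stretch of another gene.

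Chdh rose as well, from a higher level without the CEBPA mutant than the other two. CSF3R-only A to D had 117, 86, 93 and 117 counts, CSF3R-first A to C had 1591, 1949 and 1812, and CEBPA-first A to D had 11098, 11827, 9432 and 12771. The groups were again apart, and replicates of a group stayed within 1.47 times of each other in CPM. The mean CPM were 1.99 ± 0.362 (SD, n = 4), 33.4 ± 5.38 (SD, n = 3) and 184 ± 16.3 (SD, n = 4).

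Chdh was 4.07 ± 0.14 (SE) higher on the log2 scale in CSF3R-first than in CSF3R-only (edgeR adjusted p = 3.1e-09). The pooled ratio was 16.7, with a 95% counting interval of 15.1 to 18.5. CEBPA-first exceeded CSF3R-first by 2.46 ± 0.12 (SE) on the log2 scale (edgeR adjusted p = 6.8e-08), a ratio of means of 5.51. The CEBPA-first mean was 92.2 times the CSF3R-only mean, again as a description. As for the other two genes, each of these contrasts shares 1 of its groups with the choice of Chdh.

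Chdh occupies chr14:30009023-30040527 on the plus strand (GRCm38, 11 merged exons). Of its exon bases, 589, or 9.47%, also lie in exons on the other strand, mainly of the calcium channel gene Cacna1d, and whether the counting used strand is not given in the sources used here. Cacna1d itself was at 13.6 ± 1.08 (SD, n = 4), 26.4 ± 4.54 (SD, n = 3) and 14.9 ± 2.49 (SD, n = 4) CPM in the 3 groups, in the order of increasing Chdh. It was thus above Chdh (1.99 CPM) in CSF3R-only, near it (33.4 CPM) in CSF3R-first and under it (184 CPM) in CEBPA-first, and how many reads of the shared bases are counted in Chdh was not tested.

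RefSeq gives Chdh further starts inside the gene, and the counts, which are per gene, do not show which start was used. The bases before one of them, at chr14:30021131-30021302 on the plus strand, are printed because they hold the only match to a STAT core in the 5 windows of the 3 genes, together with a C/EBP core, both in capitals.

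Chdh internal start upstream: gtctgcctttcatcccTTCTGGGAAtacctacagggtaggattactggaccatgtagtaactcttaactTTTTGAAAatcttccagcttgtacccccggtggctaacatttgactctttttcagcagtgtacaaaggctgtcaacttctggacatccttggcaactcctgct

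**Figure D1:**
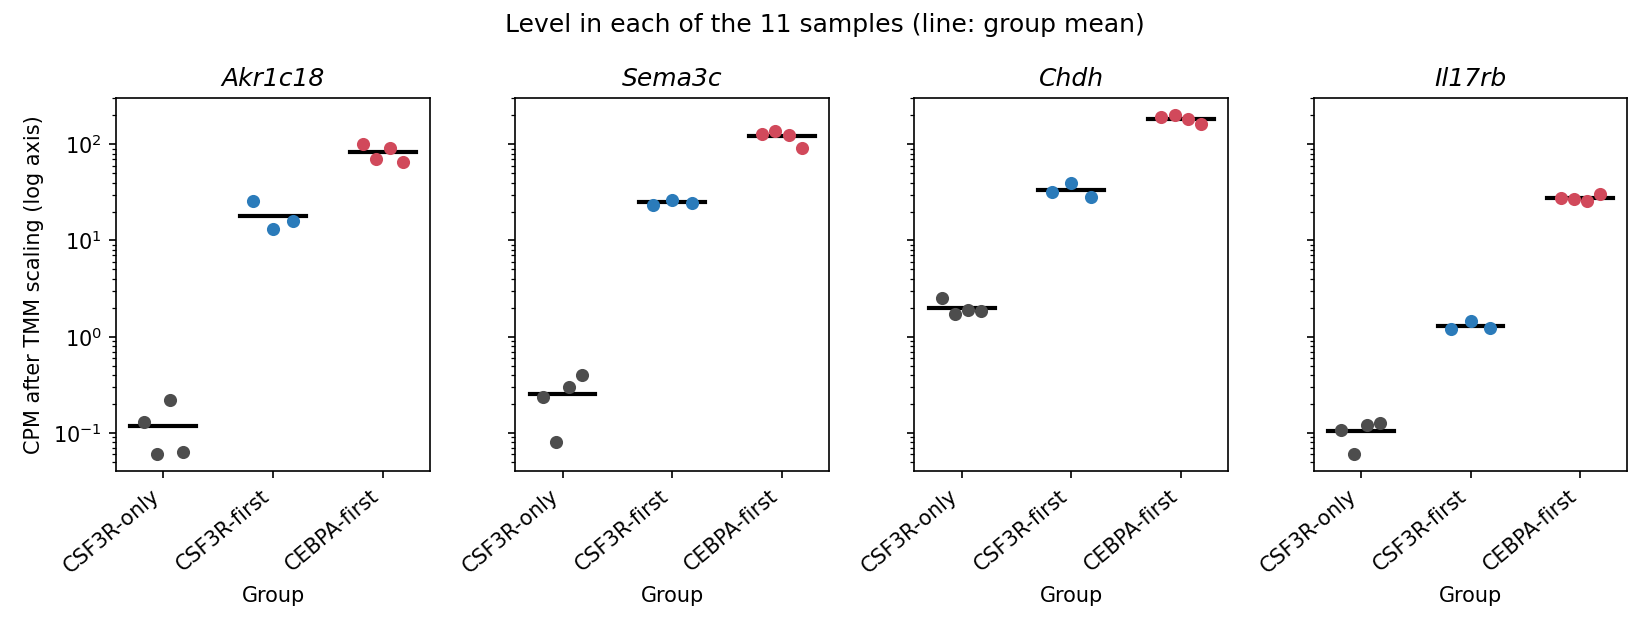
Level of Akr1c18, Sema3c, Chdh and the neighbouring gene Il17rb in each of the 11 samples, in CPM after TMM scaling on a log axis. Points are samples and lines are group means. In all 4 genes the groups stand apart, with CSF3R-first between the others, and the CSF3R-first mean of Il17rb, at 1.30 CPM, lies lower than those of the 3 genes.

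Of all genes tested, 2.13% were called higher in CSF3R-first than in CSF3R-only (adjusted p under 0.05 and a log2 fold change above 1) and 20.7% were higher without overlap between these groups. All 3 genes were in both sets. Since the genes were chosen for low counts in CSF3R-only and high counts in CEBPA-first, the choice partly fixes their place in this and the following comparisons, and nothing is read from it. In CEBPA-first against CSF3R-only, the contrast that chose the genes, 34.2% of all genes were higher without overlap. By the size of the log2 fold change, Akr1c18 ranked 1, Sema3c 4 and Chdh 27 of 15703 in CSF3R-first against CSF3R-only. Over the other settings tried, the ranks in that contrast were 1 to 4, 3 to 6 and 1 to 60. In CEBPA-first against CSF3R-first, 2.57% of genes were called higher and 27.4% were higher without overlap, and all 3 genes were again in both sets. Their ranks there were 98, 88 and 75, and over the other settings they ran from 82 to 1008 for Akr1c18, 74 to 609 for Sema3c and 6 to 586 for Chdh. The ranks of 1008, 609 and 586 came without a filter on low counts, where 28503 genes were ranked, and DESeq2 gave 432, 361 and 279 of 28493. Chdh reached ranks 1 and 6 only with at least 10 counts in every sample, among 13025 genes that did not include Akr1c18 and Sema3c.

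**Figure D2:**
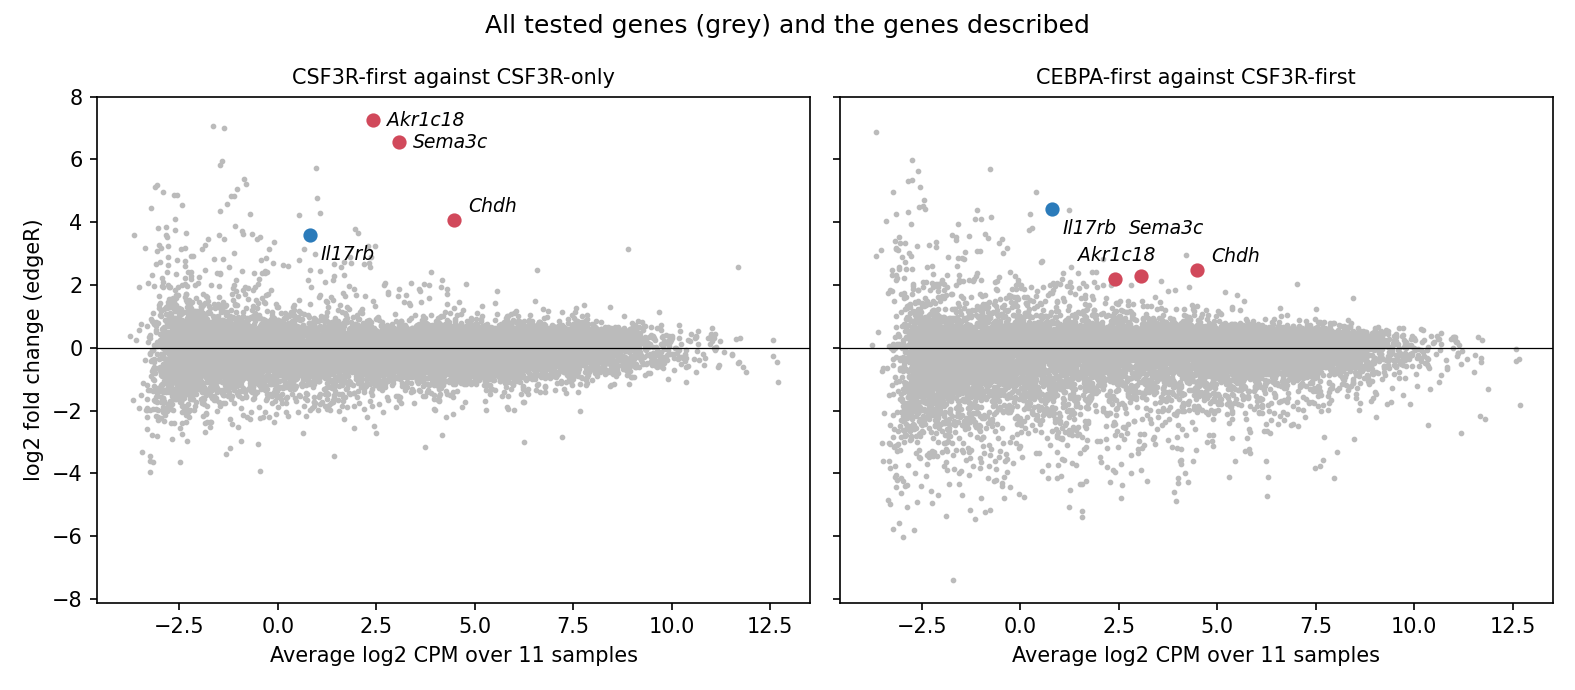
Log2 fold change (edgeR) against average log2 CPM over the 11 samples for the 15703 tested genes, in CSF3R-first against CSF3R-only (left) and CEBPA-first against CSF3R-first (right). Akr1c18, Sema3c and Chdh (red) and Il17rb (blue) are marked. In the left plot Akr1c18 has the highest value, at 7.27, and in the right plot the 3 genes lie close together, between 2.18 and 2.46.

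The 3 genes differed more in the step from CSF3R-only to CSF3R-first, called the lower step here, than in the upper step from CSF3R-first to CEBPA-first. In the upper step the ratios of means were 4.54, 4.87 and 5.51, while in the lower step they were 153, 97.9 and 16.7. In percent of the CEBPA-first mean, CSF3R-first stood at 22.0% for Akr1c18, 20.5% for Sema3c and 18.1% for Chdh. Over the 1268 genes called higher in CEBPA-first than in CSF3R-only (8.07% of those tested), the median was 64.1% (interquartile range 46.4% to 71.4%). Among the 53 of these genes with a log2 fold change of at least 5, a limit set after the values were seen, the median was 11.9% (5.69% to 23.5%).

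When the CSF3R-only mean was set to 0 and the CEBPA-first mean to 1 in log2 CPM with a prior count of 2, CSF3R-first lay at 0.758 ± 0.0539 for Akr1c18, 0.744 ± 0.0102 for Sema3c and 0.621 ± 0.0351 for Chdh (SD, n = 3). The median over the 1268 genes was 0.494 (0.370 to 0.621) and that over the 53 genes was 0.440 (0.232 to 0.625). Akr1c18 and Sema3c were above the upper quartile of both sets. By CSF3R-first replicate, the median over the 1268 genes was 0.321 in A, 0.631 in B and 0.544 in C. In 706 of the 1268 genes replicate B was the highest of the CSF3R-first samples, in 354 replicate C and in 208 replicate A. Sema3c and Chdh were highest in replicate B, at positions of 0.755 and 0.659, and Akr1c18 in replicate A, at 0.818.

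**Figure D3:**
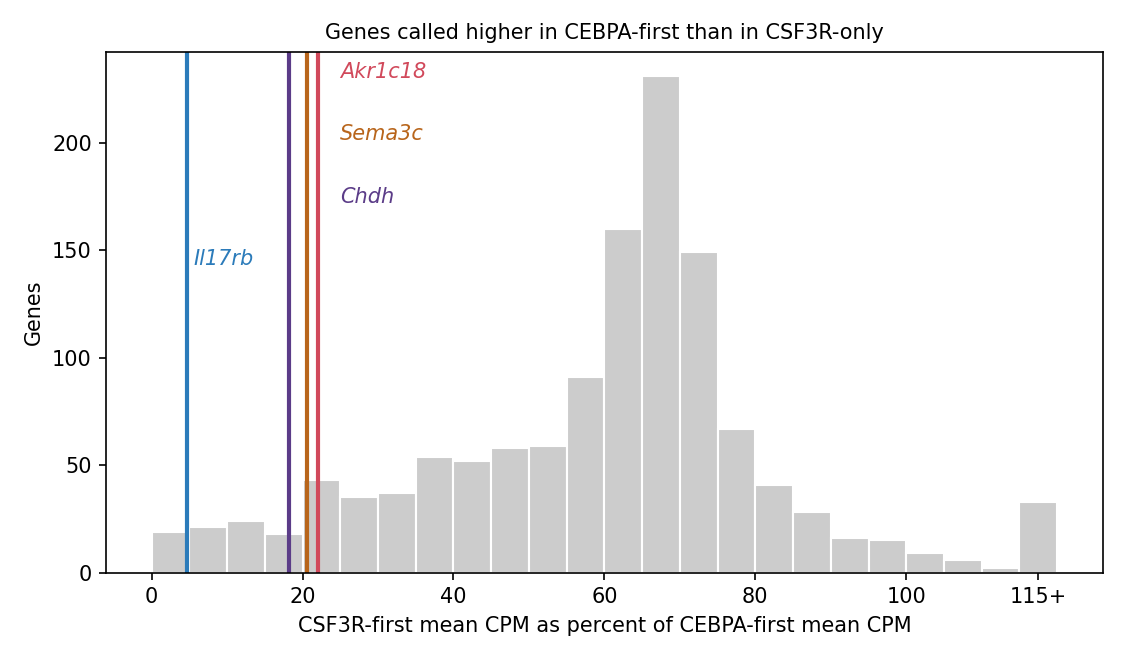
Number of genes by the CSF3R-first mean CPM as a percent of the CEBPA-first mean CPM, over the 1268 genes called higher in CEBPA-first than in CSF3R-only. The last bar holds all values of 115% and over, and lines mark the described genes. Akr1c18, Sema3c and Chdh lie between 18.1% and 22.0% and Il17rb at 4.70%, all under the median of 64.1%.

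The genes just outside the choice are given as a description, since the 3 were picked for being low in CSF3R-only and high in CEBPA-first. With limits set after the values were seen, 31 tested genes had a mean of at most 2 CPM in CSF3R-only and at least 10 CPM in CEBPA-first, and 3 had at least 50 CPM, which were Chdh, Sema3c and Akr1c18. The next below were Il17rb, at 27.7 CPM, and Tnfsf13b, the cytokine BAFF, at 27.0 CPM.

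Per kilobase of exon, the order of the 3 genes changed between groups. In CEBPA-first, Akr1c18 was highest at 68.2 ± 13.7 CPM per kb, before Chdh at 29.6 ± 2.62 and Sema3c at 17.0 ± 2.80 CPM per kb (SD, n = 4), with no overlap between neighbours in that order. CSF3R-first had the same order, at 15.0 ± 5.38, 5.37 ± 0.865 and 3.48 ± 0.222 CPM per kb (SD, n = 3), also without overlap. In CSF3R-only, Chdh was highest at 0.321 ± 0.0582 CPM per kb, and the samples of Akr1c18 at 0.0983 ± 0.0628 and Sema3c at 0.0356 ± 0.0186 CPM per kb (SD, n = 4) overlapped.

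The promoters of the 3 genes differed in base composition. In RefSeq windows of 250 bases before to 50 after the start, Sema3c had a GC content of 75.7% and 42 CpG, more CpG than 97% of all 32851 windows, and the outermost Chdh window had 70.3% and 26 CpG, more than 83.1%. Akr1c18 was at 42.3% with 5 CpG, under the median of 7. The windows were searched on both strands, without mismatches, for the letters TTNNGNAA of C/EBP factors, TTCNNNGAA of STAT factors, AGATAA of GATA factors, CAACTG of the MYB factors, TGANTCA of the AP-1 complex, CACGTG of an E-box and TATAAA of the TATA box.

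Akr1c18 held 2 C/EBP cores, starting at bases -192 and -5 from the transcript start, where 40.7% of all windows held at least 1. The outermost Chdh window held 1 AP-1 match at base -6, found in 7.81% of windows. The internal Chdh window printed above held the STAT core at -156, found in 8.30% of windows, and the C/EBP core at -103. The Sema3c window, which lies within an annotated 5′ UTR, held none of the 7. These matches describe letters in fixed windows and were not tested for binding.

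The gene beside Chdh moved too. Il17rb, the receptor subunit for the cytokine IL-25, lies head to head with Chdh on the minus strand of chr14:29996135-30008896, its annotated start 127 bases from that of Chdh in GENCODE vM21 and 5 bases in RefSeq. Its counts were 5, 3, 6 and 8 in CSF3R-only A to D, 59, 73 and 78 in CSF3R-first A to C, and 1626, 1576, 1341 and 2370 in CEBPA-first A to D. The groups did not overlap, and the mean CPM were 0.104 ± 0.0303 (SD, n = 4), 1.30 ± 0.148 (SD, n = 3) and 27.7 ± 1.92 (SD, n = 4).

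Il17rb was 3.60 ± 0.19 (SE) higher on the log2 scale in CSF3R-first than in CSF3R-only (edgeR adjusted p = 9.3e-08) and 4.41 ± 0.12 (SE) higher in CEBPA-first than in CSF3R-first (edgeR adjusted p = 5.7e-10). For Il17rb the upper step was the larger, and for Chdh the lower one. The Chdh to Il17rb ratio within a sample was 20.5 ± 6.70 (SD, n = 4) in CSF3R-only, 25.6 ± 2.08 (SD, n = 3) in CSF3R-first and 6.69 ± 0.912 (SD, n = 4) in CEBPA-first. Every CEBPA-first sample was under every CSF3R-first sample, and a two-sided exact permutation test of the log2 ratio gave p = 0.0571, the smallest that 4 samples against 3 allow (0.114 adjusted over the 2 contrasts compared). For CSF3R-first against CSF3R-only, whose samples overlapped, the same exact permutation test gave p = 0.40 (0.40 adjusted). Each contrast of the ratio shares 1 of its groups with the choice of Chdh, so nothing is read from these p-values. The CSF3R-only ratios rest on 3 to 8 Il17rb counts in a sample.

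The other 3 protein-coding neighbours that were tested were not called in either step. Actr8, an actin-related chromatin gene on the far side of Il17rb, was at 35.1 ± 1.45 (SD, n = 4), 38.6 ± 0.823 (SD, n = 3) and 45.2 ± 2.22 (SD, n = 4) CPM. Cd36, a fatty acid receptor gene 51.4 kb above Sema3c, was at 5.67 ± 1.32 (SD, n = 4), 4.88 ± 3.65 (SD, n = 3) and 4.65 ± 1.66 (SD, n = 4) CPM. Akr1c13, 40.5 kb above Akr1c18, was at 16.7 ± 1.98 (SD, n = 4), 22.7 ± 1.65 (SD, n = 3) and 36.2 ± 0.911 (SD, n = 4) CPM, a log2 fold change of 0.44 in the lower step and 0.68 in the upper step (edgeR adjusted p = 0.0019 and 8.0e-05, under the fold limit). Over both steps together, in CEBPA-first against CSF3R-only, Akr1c13 was called higher (log2 fold change 1.12 ± 0.08 SE, edgeR adjusted p = 1.1e-07). Akr1c14, on the other side of Akr1c18, had 0 counts in every sample, which allows up to 0.0383 to 0.0648 CPM per library.

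Apart from Akr1c18, 30 of 52 listed aldo-keto reductase, steroid conversion and steroid receptor genes were tested. In CSF3R-first against CSF3R-only 1 was called higher and 1 lower, where 2.13% of all genes were called higher and 4.53% lower. In CEBPA-first against CSF3R-first none was called higher by edgeR and 3 were called lower, where the shares of all genes were 2.57% and 10.3%. With so few genes these counts are near the shares over all genes. DESeq2 also called 3 genes in that contrast, and 19 of the 30 had an unadjusted edgeR p under 0.05 with no limit on the fold, as did 54.9% of all genes. The list's median log2 fold change was -0.05 in the lower step, against -0.02 over all genes, and 0.11 in the upper step, against 0.00.

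Dhrs9, a retinol and steroid dehydrogenase, fell by 1.46 ± 0.19 (SE) and then by 1.76 ± 0.19 (SE) on the log2 scale (edgeR adjusted p = 0.00014 and 1.7e-05). Hsd11b1, which regenerates active glucocorticoid, fell by 2.04 ± 0.17 (SE) in CEBPA-first against CSF3R-first (edgeR adjusted p = 2.0e-06), from a level of 71.2 to 122 CPM to 19.0 to 25.8 CPM. Akr1b8, an aldehyde reductase, fell by 1.21 ± 0.29 (SE) in the same contrast (edgeR adjusted p = 0.0043), a call lost without CSF3R-first A, where it dropped by 0.73. The progesterone receptor gene Pgr was called higher in the lower step (log2 fold change 2.67 ± 0.68 SE, edgeR adjusted p = 0.0074), though its highest count in any sample was 15. That call was lost without CSF3R-first C (edgeR adjusted p = 0.0501), and the gene had too few counts to be tested with only the compared groups or without CEBPA-first A or D. Cyp11a1, the enzyme that begins steroid synthesis, was at 216 ± 40.9 (SD, n = 4) CPM in CSF3R-only and between 81.1 and 137 CPM in the other samples, and was not called in either step, but was called lower in CEBPA-first against CSF3R-only (log2 fold change -1.24 ± 0.13 SE, edgeR adjusted p = 2.4e-06). In that contrast 3 of the 30 genes were called higher and 4 lower. Of all 15703 genes tested, 8.07% were called higher and 2976 genes lower.

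Of 10 tested neuropilin and plexin genes, the receptors of semaphorins, 5 fell and 1 rose in CEBPA-first against CSF3R-first, where 10.3% of all genes were called lower and 2.57% higher. The call of Plxna2, 1 of the 5, was lost without any of CEBPA-first B, C or D or CSF3R-first B or C, with a replicate block and with only the compared groups (edgeR adjusted p of 0.0572 to 0.195). Of the 30 tested genes among 41 other listed semaphorins, neuropilins, plexins and their signalling partners, 1 was called higher and 3 lower in CSF3R-first against CSF3R-only, where the shares of all genes were 2.13% and 4.53%, and 2 higher and 7 lower in CEBPA-first against CSF3R-first. The list's median log2 fold change was -0.27 and -0.35, against -0.02 and 0.00 over all genes. In CEBPA-first against CSF3R-only, 3 of the 30 genes were called higher and 12 lower. There 8.07% of all 15703 genes were called higher and 2976 genes lower. Among the class 3 ligands, Sema3a, Sema3b, Sema3d, Sema3f and Sema3g had too few counts to be tested, and Sema3e was called higher in the lower step (log2 fold change 1.45 ± 0.50 SE, edgeR adjusted p = 0.034) with at most 14 counts in a sample. The call of Sema3e was lost with DESeq2, without a filter on low counts and without CSF3R-only A, B or D or CSF3R-first B or C (adjusted p of 0.0598 to 0.148), and the gene was not tested with only the compared groups or without CEBPA-first B or C.

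The receptors that Sema3c is known to use were present. Nrp1, a neuropilin co-receptor, was at 28.9 ± 2.31 (SD, n = 4), 24.0 (19.7 to 32.4, n = 3) and 20.5 (16.4 to 24.0, n = 4) CPM, given in the same order of the groups, and was not called in either step (edgeR adjusted p = 0.22 and 0.30). Nrp2, the other neuropilin, fell by 1.25 ± 0.16 (SE) on the log2 scale in CEBPA-first against CSF3R-first (edgeR adjusted p = 6.0e-05), from 59.9 to 98.4 CPM down to 26.2 to 37.3 CPM. Plxnd1, a plexin of vessels and immune cells, was 0.62 ± 0.13 (SE) higher in CSF3R-first than in CSF3R-only on the log2 scale (edgeR adjusted p = 0.0028), under the fold limit, and differed by 0.03 ± 0.13 (SE) in the upper step.

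Among the A-type plexins, which bind neuropilins, Plxna4 fell in both steps (log2 fold changes -2.02 and -4.33, edgeR adjusted p = 0.00076 and 5.6e-05), and its CEBPA-first levels were at most 0.0383 CPM. Plxna1 fell by 1.45 ± 0.19 (SE) in the upper step (edgeR adjusted p = 9.0e-05). Plxna3 rose there by 1.60 ± 0.14 (SE; edgeR adjusted p = 3.9e-06), to between 4.55 and 5.60 CPM. Sema5a, a transmembrane semaphorin, rose in the upper step, by 4.52 ± 0.73 (SE) on the log2 scale (edgeR adjusted p = 0.00038), from 0.0201 to 0.0812 CPM up to 0.719 to 1.46 CPM, and was not called in the lower step (edgeR adjusted p = 0.999). The lowest counts of Plxna4 and Sema5a in a sample were 0, and neither was tested where every sample had to hold at least 10 counts. The highest CEBPA-first level of Plxna4 was that of 3 counts. Sema7a, a membrane-anchored semaphorin, fell in both steps (log2 fold changes -1.07 and -1.59, edgeR adjusted p = 0.016 and 0.0025), though the call in the lower step was lost without CSF3R-first B or C (edgeR adjusted p of 0.0596 to 0.0601).

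None of the 22 tested genes of choline oxidation, methyl transfer, phosphatidylcholine synthesis and choline transport, of 32 listed without Chdh, was called by edgeR or by DESeq2 in CSF3R-first against CSF3R-only, where 2.13% of all genes were called higher and 4.53% lower, while 13 had an unadjusted edgeR p under 0.05 and 11 an adjusted p under 0.05, as did 50.5% and 42.7% of all genes. In CEBPA-first against CSF3R-first 1 was called, Pcyt1b, an enzyme of phosphatidylcholine synthesis, which fell by 1.09 ± 0.26 (SE) on the log2 scale (edgeR adjusted p = 0.0041), where 10.3% of all genes were called lower. Without CSF3R-first C it dropped by 0.76 and was not called. Aldh7a1, which completes the oxidation of choline to betaine, was at 9.52 ± 1.15 (SD, n = 4), 10.7 ± 1.29 (SD, n = 3) and 11.8 ± 0.582 (SD, n = 4) CPM and was not called (edgeR adjusted p = 0.24 and 0.32). Bhmt, which uses betaine to methylate homocysteine, and the related methyltransferase gene Bhmt2 had 0 counts in every sample, and Dmgdh, the next enzyme, had at most 1. In CEBPA-first against CSF3R-only, 2 of the 22 genes were called higher (Etfa and Mtrr) and 3 lower (Chpt1, Pcyt1b and Slc44a1). There 8.07% of all 15703 genes were called higher and 2976 genes lower.

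**Figure D4:**
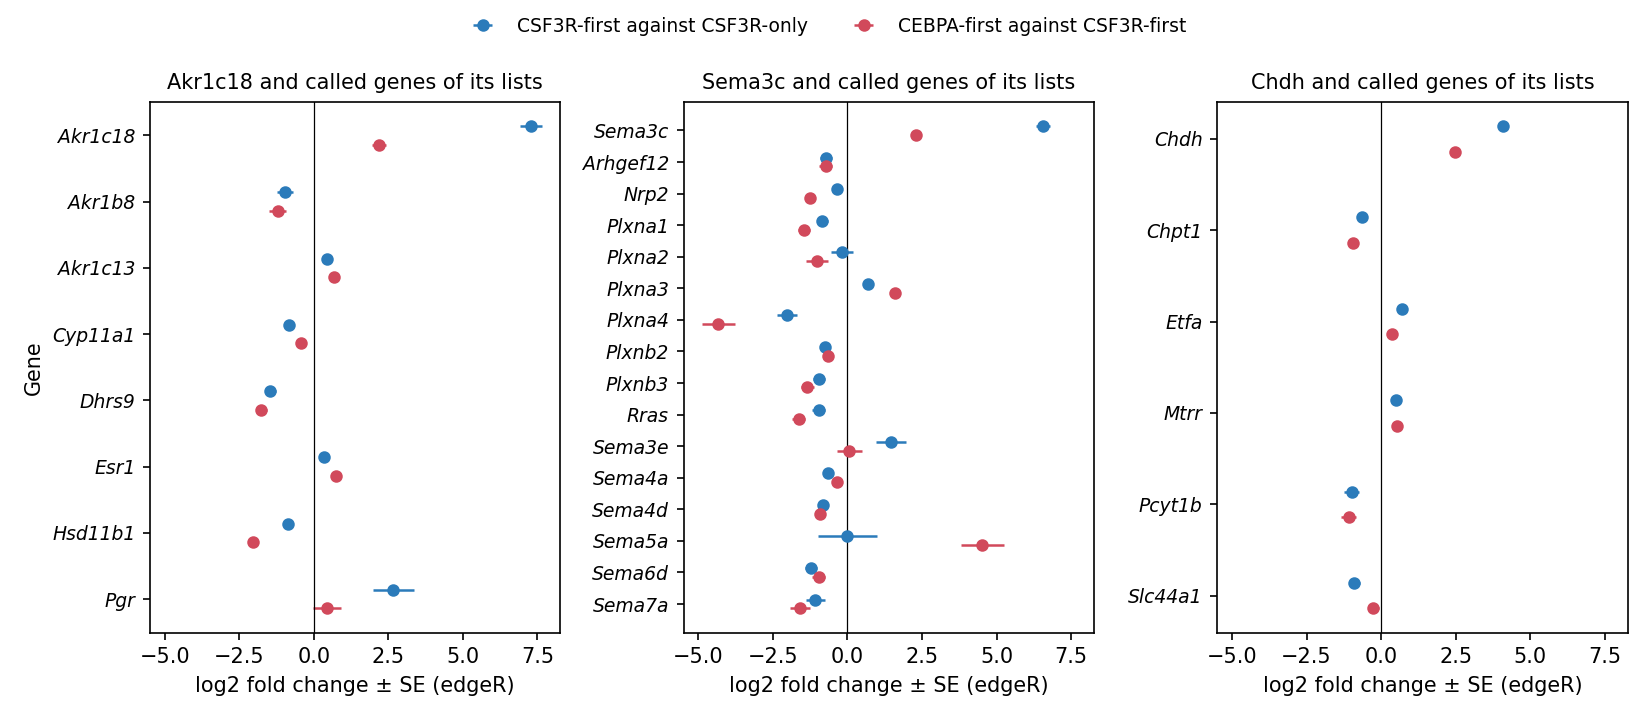
Log2 fold changes with standard errors (edgeR) of Akr1c18, Sema3c and Chdh and of every gene of their lists that was called in any of the 3 contrasts, in CSF3R-first against CSF3R-only (blue) and CEBPA-first against CSF3R-first (red). The 3 genes lie at 2.18 or above in both contrasts, while the other genes drawn lie between -4.33 for Plxna4 and 4.52 for Sema5a, and no other gene drawn lies at 2.18 or above in both.

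The genes with the most similar profiles were found by the root mean square difference of log2 CPM, each gene centred on its own mean, over the 11 samples and 15667 tested genes with a symbol. For Akr1c18 the nearest was Sema3c, at 0.553, and the reverse held as well, with Slc6a2, the noradrenaline transporter, second for both, at 1.25 and 1.15. Slc6a2 was at 0.107 ± 0.0472 (SD, n = 4) CPM in CSF3R-only, 4.39 to 6.45 CPM in CSF3R-first and 8.47 to 15.8 CPM in CEBPA-first. For Chdh the nearest was Mecom, the stem cell transcription factor EVI1, at 0.255, followed by Rasl11b at 0.304, Gm26781 at 0.389, Col25a1 at 0.433 and Col19a1 at 0.438. Sema3c was at rank 44 for Chdh, at 1.24, and Akr1c18 at rank 78, at 1.40. In the reverse direction, Chdh was at rank 3 for Sema3c and rank 4 for Akr1c18. Mecom was also at rank 4 for Sema3c, at 1.29, and rank 5 for Akr1c18, at 1.51. Mecom rose from 0.170 ± 0.0361 (SD, n = 4) CPM in CSF3R-only to between 2.42 and 4.49 CPM in CSF3R-first and between 13.1 and 17.5 CPM in CEBPA-first. Mecom is on the stem and progenitor list. Ranked by Pearson correlation instead, 0 of these 5 nearest genes stayed among the first 5 for Akr1c18, 0 for Sema3c and 2 for Chdh. By that measure Sema3c was rank 9 for Akr1c18 and Akr1c18 rank 10 for Sema3c, while Slc6a2 was at ranks 16 and 32 and Mecom at rank 2 for Chdh. These points share libraries and groups, so likeness is a description.

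Levels of cell type markers also differed between the groups, over 10 marker lists. The summed level of 14 neutrophil genes ranged over 29617 to 35735 CPM in CSF3R-only, 19062 to 30016 CPM in CSF3R-first and 11887 to 13834 CPM in CEBPA-first, with 10 of the 14 called lower in CEBPA-first against CSF3R-first, where 10.3% of all genes were called lower and 2.57% higher. For 7 megakaryocyte genes the ranges were 908 to 1233, 345 to 538 and 112 to 156 CPM, with 6 called lower. For 9 stromal genes they were 6.29 to 7.44, 7.96 to 11.3 and 18.7 to 22.6 CPM, with 1 of 4 tested genes called higher, while Col3a1, Cxcl12 and Lum had 0 counts in every sample. The 11 stem and progenitor genes summed to 545 to 784, 477 to 535 and 495 to 525 CPM, with 2 called higher and 4 lower. Monocyte and macrophage genes summed to 2868 to 3659, 1595 to 2754 and 891 to 1249.9 CPM, with 8 of 11 called lower, and erythroid genes to 239 to 348, 104 to 330.3 and 25.6 to 39.5 CPM, with 6 of 8 tested called lower. Eosinophil genes summed to 246 to 367, 61.8 to 141 and 31.5 to 39.1 CPM, with 2 of 7 tested called lower. Mast cell and basophil genes overlapped between the last 2 groups, at 2183 to 3212, 1369 to 1672 and 1417 to 1849 CPM, with 1 of 13 tested called higher and 4 lower. Of the lymphoid genes, at 34.4 to 53.1, 23.0 to 27.0 and 7.88 to 9.43 CPM, 3 were tested, with 1 called higher and 1 lower, and Cd3e and Ncr1 had 0 counts in every sample. The endothelial genes were at 129.96 to 137, 133 to 149 and 155 to 176 CPM, and the defining markers Cdh5 and Emcn had at most 3 counts in any sample. In CSF3R-first against CSF3R-only, 7 of 14 neutrophil, 7 of 7 megakaryocyte and 2 of 11 monocyte and macrophage genes were called lower. So were 3 of 13 mast cell and basophil, 3 of 7 eosinophil, 2 of 11 stem and progenitor and 1 of 3 lymphoid genes tested. None of 8 erythroid, 4 stromal or 3 endothelial genes was called. There 1 neutrophil and 1 stem and progenitor gene were called higher, where 4.53% of all genes were called lower and 2.13% higher. In sorted bulk samples, fewer cells of a type and less RNA per cell cannot be told apart, and the part of these markers in the levels of the 3 genes was not tested.

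Mouse Cebpa was at 87.2 ± 6.98 (SD, n = 4), 131 ± 10.4 (SD, n = 3) and 167 ± 6.12 (SD, n = 4) CPM and mouse Csf3r at 846 ± 94.9 (SD, n = 4), 516 ± 118 (SD, n = 3) and 154 ± 16.1 (SD, n = 4) CPM, in the order used above. Reads of the human transgenes were not analysed here, and what they add to the mouse genes was not tested. Library totals were 47905747 to 72268346 counts, and no library was left out.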

How the data were processed

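RNA of 11 mouse marrow samples was sequenced. The authors trimmed and aligned the reads (STAR), and what they deposited are raw whole-number counts for each gene; mm10 and DESeq2 also stand in the submitters' processing notes, and the counting tool and use of strand are not given in the sources used here. The groups come from the sample titles.

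From the counts, TMM factors, CPM and edgeR 4.0.16 quasi-likelihood tests (R 4.3.3, one fit of the 3 groups, no covariates, filterByExpr) were computed, with Benjamini-Hochberg adjustment over 15703 genes and a call at adjusted p under 0.05 and an absolute log2 fold change above 1. Alternatives were DESeq2 1.42.0, other scalings, count filters and thresholds, only the compared groups, a replicate block and each sample left out. The fit was tested on simulated data. Near-identical sequence was searched with BLAST 2.17.0. Symbols matched 51633 of 51912 identifiers.

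The 3 genes and all lists were chosen with earlier results of these data known. Named genes are the 3, up to 4 called genes of each list and contrast, fixed receptors and enzymes, the 5 most similar profiles and the nearest 2 genes on each side. Of the genes within these rules, those that help to describe the 3 are named. Plxna2, Tnfsf13b, Cacna1d, Akr1c20 and listed genes given as having few or no counts fall outside them and were chosen after their values were seen.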

Additional observations from a re-analysis of the deposited data

Results flagged for a closer look

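In 9 of 84 groups of 4 samples checked for the named genes, 1 sample lay far from the other 3, where a rate of 1 in 20 would give 4.2 groups. The groups share libraries and some flags rest on single counts, so nothing is read from this difference. None of the 9 was in Akr1c18, Sema3c, Chdh or Il17rb. CSF3R-only B was low for Sema7a (1.502 CPM) and Cacna1d (11.9 CPM) and high for Plxnb3 (2.28 CPM). CSF3R-only C was high for Sema5a (0.161 CPM), and CSF3R-only D was high for Cd36 (7.65 CPM). CSF3R-only A held the only count of Gm26781 and of Col25a1 in its group (0.0216 CPM each). CEBPA-first B was high for Arhgef12 (1.88 CPM), and CEBPA-first A was low for Col19a1 (4.13 CPM).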

How the results depend on the processing

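Akr1c18, Sema3c and Chdh kept their direction and their call in both contrasts under every alternative that gave a value, 17 for Akr1c18 and Sema3c and 18 for Chdh. The log2 fold change of Akr1c18 ranged from 6.95 to 7.75 in CSF3R-first against CSF3R-only and from 2.0 to 2.51 in CEBPA-first against CSF3R-first. For Sema3c the ranges were 6.27 to 6.90 and 2.21 to 2.39, and for Chdh 3.94 to 4.19 and 2.36 to 2.60. Where every sample had to hold at least 10 counts, Akr1c18, Sema3c and Il17rb were not tested.

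Counts of calls moved more. With at least 10 counts in every sample, 566 genes were called in CSF3R-first against CSF3R-only and 1219 in CEBPA-first against CSF3R-first. The main fit called 1045 and 2016 genes in these contrasts. That filter left 13025 genes to test, against 15703 in the main fit, and the reason for the fall in calls was not tested. With adjusted p alone, 6703, 7578 and 11314 genes were called in these contrasts and in CEBPA-first against CSF3R-only. In CSF3R-first against CSF3R-only, 1 steroid and aldo-keto reductase gene was called with at least 10 counts and 1 with only the compared groups fitted (Pgr was not tested in either), and 1 to 4 without single samples, with 4 reached without CSF3R-first A and 1 without CEBPA-first A or D or CSF3R-first C. Of the semaphorin genes there, 2 were called with at least 10 counts and 2 to 6 without single samples, 2 without CSF3R-first B or C. Of the choline genes, 0 to 2 were called there without single samples, 2 without CSF3R-first A and 1 without CSF3R-first C or CSF3R-only A or B. With adjusted p alone, the 3 contrasts gave 16, 19 and 27 steroid, 17, 21 and 27 semaphorin and 11, 10 and 15 choline genes.

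With the replicate letter as a block, 1 choline gene was called in CSF3R-first against CSF3R-only, and no call of the 3 genes changed. The correlations of same-letter samples ran from -0.107 to 0.362 and 7 of 10 were over 0.1. Between different letters they ran from -0.341 to 0.384 and 5 of 30 were over 0.1, so the highest of all joined different letters. In 12 of 20 cases a sample correlated best with its own letter in another group, a hint from the data that letters may share something. Since not all 10 were over 0.1 and the labels do not say what a letter marks, the main values are those without the block.

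The lowest levels rest on 3 to 25 counts for Akr1c18 and Sema3c in CSF3R-only, so their folds against that group are less certain than those between the other groups.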
